A study of Mus musculus with 44 samples.

Results

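A set of 10 genes that mark macrophages and Kupffer cells were followed in liver and skeletal muscle. They are the listed members Adgre1, Cd68, Clec4f, Timd4, Cd5l, Marco, Trem2, Gpnmb, Ccl2 and Itgax, which were chosen with earlier results of these data known. They make up 10 of the 38202 genes in the deposited tables. The samples were liver and muscle of 11 wild-type (WT) mice and 11 Slc16a13 knockout (KO) mice, which gave 44 libraries. Slc16a13 encodes a monocarboxylate transporter. The knockout mice carried a homozygous whole-body deletion made by CRISPR/Cas9 on the C57BL/6N background, and what was deleted spans the promoter with the first exons, so later exons are still present. All mice of both genotypes were male littermates, were 20 weeks old, had received a high-fat diet (HFD) for 15 weeks and were fasted overnight, so no lean or chow-fed group was compared here. Which muscle gave the RNA is not stated in the sources used here.

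Macrophages take up dead cells, particles and lipid, and release signals that draw in other immune cells. Kupffer cells are the resident macrophages of the liver sinusoids, and they carry scavenger and lectin receptors that filter the blood. In fatty liver, monocytes recruited by chemokines such as Ccl2 can become macrophages that express the lipid-associated genes Trem2 and Gpnmb. In skeletal muscle, macrophages lie between the fibres and in the fat that surrounds them. Whole tissue was sequenced, so fewer cells of a type and less RNA per cell cannot be told apart in any value given here.

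The targeted gene was examined first. Slc16a13 held between 99 and 302 reads in WT livers and between 0 and 8 in KO livers, which did not overlap. In muscle it was low in both groups, with between 4 and 22 reads in WT libraries and between 11 and 40 in those labelled KO, so no loss was seen. The authors report loss of the transcript in multiple tissues by PCR over the deleted exons. Reads from exons outside the deletion were not separated here, so these counts cannot settle the label. These are called the muscle libraries labelled KO throughout. The tissues matched their labels, as 6 hepatocyte genes summed to at least 70410 CPM in livers and at most 7.91 CPM in muscles. Total counts per library ranged from 20150712 to 35218243. The slope of a library's log2 expression on log2 gene length, relative to the mean library of the tissue, was between 0.0395 and 0.0956 in WT livers. In 4 KO livers it was below 0, with slopes of -0.535 (mouse 532), -0.421 (mouse 602), -0.250 (mouse 583) and -0.0788 (mouse 611), so that short genes took more of their reads. Liver results are therefore also given without these 4 libraries. The labels do not say whether the mice of a genotype were housed or processed apart. The authors report that libraries were pooled for sequencing, in pools as large as a group here. Which libraries shared a pool is not stated in the sources used here, and the labels number the libraries group by group. If pools followed the groups, a difference between groups cannot be told from one between pools, and this was not tested. The p-values measure only the spread between mice as sampled.

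The 250 bases before the transcription start of the 4 Kupffer cell genes and of Gpnmb are shown because these genes set the tissues apart below. They were read from RefSeq promoter windows on GRCm38.p6, where 8 of the 10 genes matched. Capitals mark a match to 1 of 6 motifs searched on both strands, and the genes' strand is shown 5′ to 3′. The windows lie at chr6:83656117-83656366 on the minus strand (Clec4f), chr11:46810549-46810798 on the plus strand (Timd4), chr3:87357631-87357880 on the plus strand (Cd5l), chr1:120505025-120505274 on the minus strand (Marco) and chr6:49036268-49036517 on the plus strand (Gpnmb).
Clec4f: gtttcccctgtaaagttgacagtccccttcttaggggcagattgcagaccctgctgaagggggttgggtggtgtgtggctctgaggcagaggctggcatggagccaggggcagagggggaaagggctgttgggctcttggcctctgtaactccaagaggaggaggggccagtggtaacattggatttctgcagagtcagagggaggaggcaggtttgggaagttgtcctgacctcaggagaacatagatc
Timd4: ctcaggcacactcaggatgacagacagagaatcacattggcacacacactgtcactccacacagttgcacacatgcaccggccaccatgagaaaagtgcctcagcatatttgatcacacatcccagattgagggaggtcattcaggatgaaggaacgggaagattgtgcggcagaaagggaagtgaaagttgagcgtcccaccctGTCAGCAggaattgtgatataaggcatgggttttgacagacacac
Cd5l: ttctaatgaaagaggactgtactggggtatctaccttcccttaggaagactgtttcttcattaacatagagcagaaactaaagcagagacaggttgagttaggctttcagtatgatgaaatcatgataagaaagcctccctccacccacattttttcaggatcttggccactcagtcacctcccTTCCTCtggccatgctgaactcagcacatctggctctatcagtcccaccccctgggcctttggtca
Marco: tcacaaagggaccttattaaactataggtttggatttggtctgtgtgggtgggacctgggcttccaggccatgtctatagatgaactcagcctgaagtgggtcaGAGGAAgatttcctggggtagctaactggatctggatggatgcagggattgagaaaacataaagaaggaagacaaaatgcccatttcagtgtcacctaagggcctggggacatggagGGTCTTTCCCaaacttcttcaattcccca
Gpnmb: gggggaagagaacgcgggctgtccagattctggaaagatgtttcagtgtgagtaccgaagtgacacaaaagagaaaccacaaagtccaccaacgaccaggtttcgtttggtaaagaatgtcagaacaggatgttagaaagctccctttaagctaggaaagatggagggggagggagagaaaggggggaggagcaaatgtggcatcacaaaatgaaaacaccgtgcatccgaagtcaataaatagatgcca

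The core of the myeloid factor PU.1 (GAGGAA) was found before 4 of the 8 genes, namely Cd5l, Cd68, Marco and Trem2, and 23.3% of all 32817 windows hold it. A site of the MAF factors (TGCTGAC) was found before Timd4 alone among the 8, on the opposite strand, and 3.81% of all windows hold it. An NF-kB motif was found before Marco, also on the opposite strand, and 17.6% of all windows hold it. The E-box CACGTG (6.02% of windows), the MITF motif TCATGTG (3.25%) and a direct repeat bound by nuclear receptors (0.0152%) had no match before any of the 8. The matches in these windows did not overlap each other. Clec4f, Gpnmb and Itgax had no match to any of the 6, which says only that these letters are not in these 250 bases.

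Levels were compared between genes as RPKM, which are reads scaled to gene length and library size, in the values the authors deposited. In WT liver the Kupffer cell genes Clec4f and Cd5l stood above the rest. Clec4f, a lectin receptor of Kupffer cells, was at 67.5 ± 4.24 RPKM (SD, n = 11) and Cd5l, a secreted protein of the scavenger receptor family, at 56.2 ± 6.77 RPKM. Cd68, a lysosomal glycoprotein of phagocytes, followed at 12.6 ± 2.09 RPKM, and Adgre1, the surface receptor by which mouse macrophages are commonly recognised, at 7.87 ± 1.17 RPKM. Below them lay Marco (a scavenger receptor, 4.05 ± 2.60 RPKM), Timd4 (a receptor for phosphatidylserine on dying cells, 3.14 ± 0.577 RPKM), Ccl2 (1.77 ± 1.44 RPKM), Trem2 (a lipid-sensing receptor, 1.01 ± 0.395 RPKM), Gpnmb (a transmembrane glycoprotein of lysosomes, 0.480 ± 0.437 RPKM) and Itgax (an integrin subunit, 0.372 ± 0.173 RPKM). Within the same library Clec4f was above Cd5l in 10 of 11 WT livers, and the ranges of this pair overlapped. Cd5l and Cd68 did not overlap. The neighbours Marco and Timd4 (Marco higher in 7 of 11 livers), Ccl2 and Trem2 (6 of 11) and Gpnmb and Itgax (5 of 11) changed places from mouse to mouse. In KO liver the means of Marco and Adgre1 stood in the other order, at 10.3 and 8.27 RPKM, yet Marco was above Adgre1 in only 3 of 11 KO livers.

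In WT muscle the order differed. Cd68 led at 5.81 ± 3.37 RPKM (SD, n = 11), followed by Gpnmb at 1.502 ± 0.616 RPKM and Adgre1 at 0.965 ± 0.444 RPKM. Trem2 (0.589 ± 0.352 RPKM), Ccl2 (0.463 ± 0.366 RPKM) and Itgax (0.168 ± 0.103 RPKM) came next, and the Kupffer cell genes were last. Cd68 was above Gpnmb in all 11 WT muscles, whereas Trem2 was above Ccl2 in 6 of 11. The muscle libraries labelled KO gave the same order of means, from Cd68 at 5.67 ± 4.26 RPKM to Clec4f at 0. The RPKM values of Cd68, Clec4f, Trem2, Ccl2 and, to a smaller degree, Adgre1 do not rest on a single gene length in every library. The ranks were the same when a fixed length per gene was used.

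**Figure D1:**
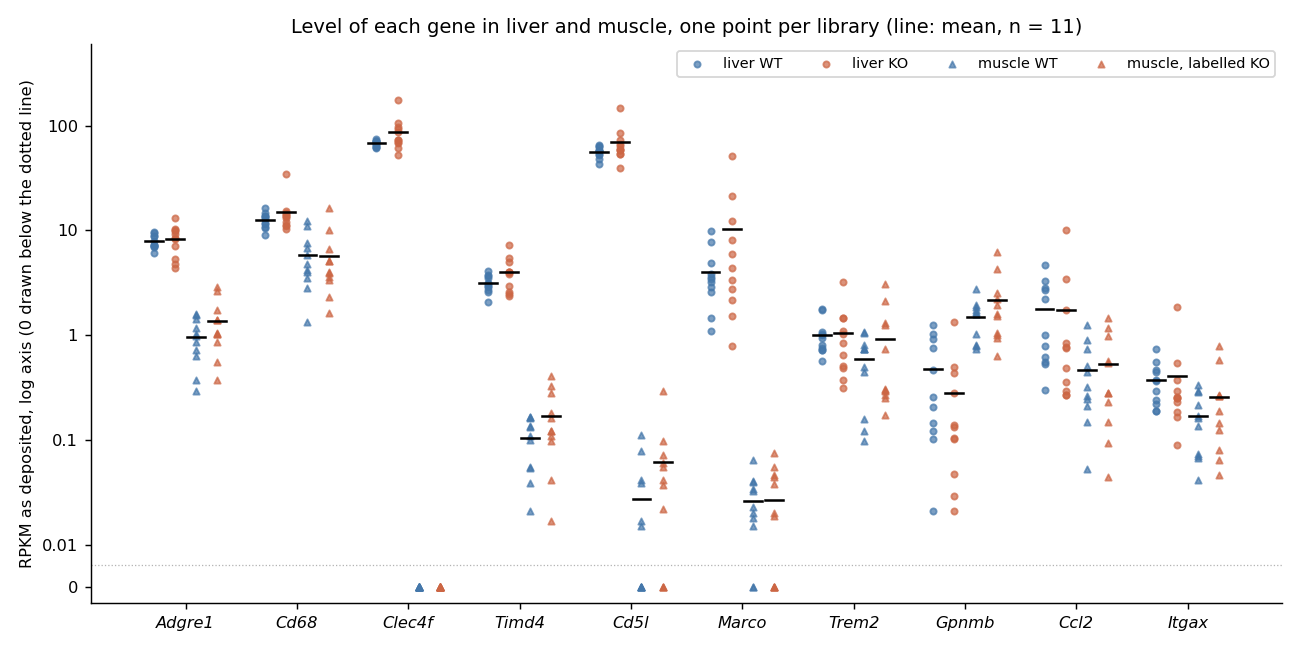
Deposited RPKM of the 10 genes on a log axis, with 1 point per library, for WT liver, KO liver, WT muscle and muscle labelled KO (11 libraries each). Lines mark the mean, and values of 0 are drawn below the dotted line. Clec4f is at 0 in every muscle library and at 60.9 to 74.0 RPKM in WT livers, while Gpnmb is higher in muscle.

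The question of where the genes are expressed was tested in WT mice first. Of the 10 genes, 9 were higher in WT liver than in WT muscle and 1, Gpnmb, was lower (edgeR quasi-likelihood test, Benjamini-Hochberg adjustment over 13907 genes, adjusted p below 0.05). Among all genes tested 45.5% were higher in liver and 45.5% lower, so a difference in itself was common. The Kupffer cell genes Clec4f, Timd4, Cd5l and Marco and the chemokine gene Ccl2 were removed by the filter on low counts in muscle alone. They therefore entered this test through liver. A higher level in liver was thus built into their entry, and their direction is a description only. The RPKM ranges of 5 of the 10 genes, Adgre1, Clec4f, Timd4, Cd5l and Marco, did not overlap between the tissues, against 67.4% of all genes tested.

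Clec4f had 0 reads in all 22 muscle libraries. In WT mice its mean in liver was at least 862-fold higher than the floor set by 3 reads per muscle library, and in KO mice at least 1040-fold, both on library size and for counting error only. Cd5l held between 0 and 7 reads in WT muscles and between 0 and 16 in those labelled KO, and 5 and 3 of these libraries had none. The log2 difference of Cd5l between WT liver and WT muscle was 10.86 (standard error 0.19, edgeR). Marco held at most 3 reads in any WT muscle and at most 4 in any labelled KO, with a log2 difference of 7.20 (standard error 0.47, edgeR). Timd4 was present in every muscle library at 1 to 11 reads in WT mice and 1 to 25 in those labelled KO, and differed by 4.90 (standard error 0.19, edgeR). Of the Kupffer cell genes in muscle, Clec4f was unread, Marco and most values of Cd5l lay near the floor of 3 reads, and Timd4 lay above it in most libraries.

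The pan-macrophage genes were read in both tissues. On the CPM scale, which is counts scaled to library size by the TMM method within a tissue, Adgre1 had a lowest, median and highest value of 20.7, 23.9 and 30.6 CPM in WT livers, and of 0.995, 3.17 and 4.94 CPM in WT muscles. The log2 difference between WT liver and WT muscle was 3.07 (standard error 0.19, adjusted p = 3.49e-14, edgeR). For Cd68 the difference was smaller, at 1.34 (standard error 0.22, adjusted p = 4.73e-06, edgeR), and its RPKM ranges overlapped between the tissues. Itgax differed by 1.17 (standard error 0.29, adjusted p = 0.000688, edgeR) and Trem2 by 0.75 (standard error 0.30, adjusted p = 0.0234, edgeR). Ccl2, which entered through liver, differed by 1.90 (standard error 0.44, edgeR), as a description only. Gpnmb went the other way and was lower in WT liver by a log2 difference of -1.59 (standard error 0.39, adjusted p = 0.000552, edgeR). The lipid-associated pair Trem2 and Gpnmb therefore differed in opposite directions between the tissues of WT mice.

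The same contrast was then made in the KO mice, which the first did not use, with muscle libraries whose Slc16a13 count does not show the loss their label implies. Of the 10 genes 7 were higher and 1 lower in KO liver than in muscle labelled KO (edgeR, adjusted over 13981 genes), against 43.9% and 42.8% of all genes. Clec4f, Timd4, Cd5l, Marco and Ccl2 entered through liver here too, so their direction is again a description only. Gpnmb was again lower in liver, with a log2 difference of -2.80 (standard error 0.54, adjusted p = 3.87e-05). Trem2, at 0.25 (standard error 0.47, adjusted p = 0.623), and Itgax, at 0.82 (standard error 0.49, adjusted p = 0.118), did not pass. The same 5 genes as in WT mice had RPKM ranges that did not overlap, against 58.3% of all genes. Ccl2, at 1.82 (standard error 0.65, adjusted p = 0.0117), passed with all libraries, but had an adjusted p of 0.0606 without the 4 KO livers with a slope below 0, of 0.0517 with the mouse as a block and of 0.0533 with limma-voom.

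Whether deletion of Slc16a13 changed these genes in the liver of HFD-fed mice was tested next. None of the 10 passed the adjusted threshold between KO and WT liver (edgeR, 13005 genes), where 3 genes, or 0.0231%, did. At an unadjusted p under 0.05, 4 of the 10 differed, against 12.9% of all genes, and all 4 were Kupffer cell genes with higher means in KO livers. Without the 4 KO livers with a slope below 0, only Timd4 of the 10 remained at an unadjusted p under 0.05, against 2.96% of all genes in that fit. The median log2 difference of the 10 genes was 0.24 with all 22 livers and 0.035 without these 4, against -0.0054 and 0.00065 over all genes tested.

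Among the Kupffer cell genes, Clec4f had a lowest, median and highest value of 103, 117 and 128 CPM in WT livers, and of 93.4, 133 and 255 CPM in KO livers. The 4 KO livers with a slope below 0 held 162 to 255 CPM, above every other liver of either genotype, and the other 7 KO livers held 93.4 to 150 CPM. The log2 difference between KO and WT was 0.34 (standard error 0.12, p = 0.00927, adjusted p = 0.382, edgeR). Without those 4 livers it was 0.076 (standard error 0.073, p = 0.307, adjusted p = 0.999). With the relation to gene length removed from every library it was 0.27 (standard error 0.098, p = 0.0115, adjusted p = 0.562), and with 1 surrogate variable in the model 0.12 (standard error 0.077, p = 0.143, adjusted p = 1). The difference was thus smaller without the 4 livers or with the surrogate variable than with gene length removed.

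Cd5l ranged from 90.7 over a median of 111 to 129 CPM in WT livers and from 81.4 over 125 to 316 CPM in KO livers. The groups overlapped, and the highest KO liver was mouse 532. The log2 difference was 0.36 (standard error 0.15, p = 0.0262, adjusted p = 0.382, edgeR), and 0.12 (standard error 0.090, p = 0.180, adjusted p = 0.999) without the 4 livers. Timd4 ranged from 4.26 over 6.47 to 8.92 CPM in WT livers and from 5.199 over 8.38 to 16.3 CPM in KO livers. It differed by 0.41 (standard error 0.17, p = 0.0237, adjusted p = 0.382, edgeR), and by 0.31 (standard error 0.15, p = 0.0498, adjusted p = 0.999) without the 4 livers. Timd4 was therefore the Kupffer cell gene whose difference depended least on those libraries, and it did not pass the adjusted threshold in either fit. Without mouse 532 alone Timd4 differed by 0.29 (p = 0.0532) and Cd5l by 0.19 (p = 0.0441), with adjusted p of 0.604 for both. With gene length removed Timd4 differed by 0.39 (p = 0.0279) and Cd5l by 0.32 (p = 0.0322), and with 1 surrogate variable by 0.29 (p = 0.107) and 0.12 (p = 0.326), with adjusted p of at least 0.562.

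Marco was the most variable of the Kupffer cell genes. It ranged from 2.17 over 6.79 to 19.2 CPM in WT livers and from 1.79 over 8.25 to 106 CPM in KO livers, the latter in mouse 532. The next KO livers were mouse 568 at 43.5 CPM and mouse 587 at 24.7 CPM, which both have slopes above 0, and the lowest KO liver, mouse 602, lies in the group with slopes below 0. The log2 difference was 1.42 (standard error 0.57, p = 0.0192, adjusted p = 0.382, edgeR), 0.89 (standard error 0.47, p = 0.0730, adjusted p = 0.999) without the 4 livers and 0.69 (standard error 0.45, p = 0.145, adjusted p = 0.605) without mouse 532 alone. Removing the relation to gene length left 1.35 (p = 0.0224), and a surrogate variable in the model left 0.73 (p = 0.185).

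**Figure D2:**
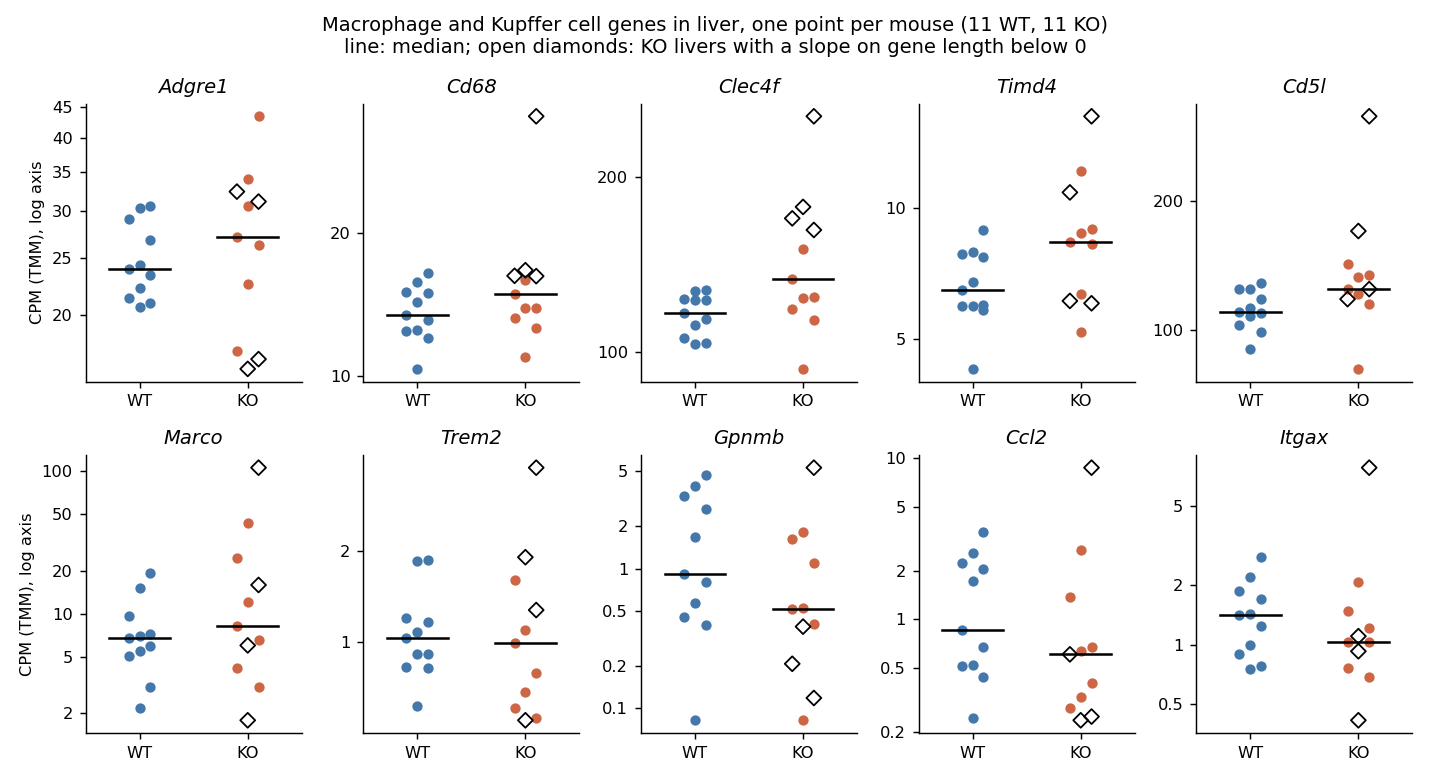
CPM of each gene in liver on log axes, with 1 point per mouse (11 WT, 11 KO) and a line at the median. Open diamonds are the 4 KO livers with a slope on gene length below 0. All 4 lie above the other livers for Clec4f (162 to 255 CPM), and 1 of them, mouse 532, is the highest liver for 9 of the 10 genes.

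The pan-macrophage genes overlapped between genotypes. Adgre1 ranged from 20.7 over 23.9 to 30.6 CPM in WT livers and from 16.2 over 27.2 to 43.5 CPM in KO livers, with a log2 difference of 0.12 (standard error 0.14, adjusted p = 0.619, edgeR). Its highest KO liver was mouse 568, and 2 of the livers with a slope below 0 were its lowest. Cd68 ranged from 10.4 over 13.4 to 16.5 CPM in WT livers and from 11.0 over 14.9 to 35.1 CPM in KO livers, with a log2 difference of 0.26 (standard error 0.15, adjusted p = 0.392, edgeR). Without the 4 livers the difference of Cd68 was -0.0056 (standard error 0.087). The 4 held 16.2 to 35.1 CPM and the other 7 KO livers 11.0 to 15.9 CPM.

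The lipid-associated genes were read at a low level in liver. Trem2 ranged from 0.615 over 1.04 to 1.87 CPM in WT livers (15 to 49 reads) and from 0.553 over 0.996 to 3.78 CPM in KO livers (14 to 102 reads). Gpnmb ranged from 0.0820 over 0.918 to 4.70 CPM in WT livers (2 to 117 reads) and from 0.0830 over 0.514 to 5.27 CPM in KO livers (2 to 142 reads). Both genes overlapped between genotypes over most of their range. The log2 difference of Trem2 was 0.17 (standard error 0.30, adjusted p = 0.747, edgeR) and turned to -0.31 (standard error 0.24) without the 4 livers. Gpnmb was the 1 gene of the 10 with a lower fitted level in KO livers, with a log2 difference of -0.69 (standard error 0.61, p = 0.267, adjusted p = 0.513, edgeR). Without the 4 livers it was -1.06 (standard error 0.62, p = 0.103, adjusted p = 0.999, edgeR). Leaving out mouse 532 alone, its highest KO liver, moved this to -1.40 (standard error 0.56, p = 0.0195, adjusted p = 0.604, edgeR). Of the 22 fits that left out a mouse, this gave the lowest value and the only p under 0.05.

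The recruitment genes showed the same dependence on mouse 532. Ccl2 ranged from 0.246 over 0.860 to 3.50 CPM in WT livers and from 0.237 over 0.608 to 8.76 CPM in KO livers. Its log2 difference was 0.08 (standard error 0.60, adjusted p = 0.943, edgeR) with all livers and -0.91 (standard error 0.48, adjusted p = 0.604) without mouse 532. Without the 4 livers with a slope below 0 it was -0.63 (standard error 0.53, p = 0.248, adjusted p = 0.999, edgeR). Itgax ranged from 0.751 over 1.41 to 2.78 CPM in WT livers and from 0.416 over 1.04 to 7.83 CPM in KO livers. Its log2 difference was 0.21 (standard error 0.40, adjusted p = 0.764, edgeR), and -0.44 (standard error 0.25, adjusted p = 0.604) without that mouse. Without the 4 livers the value for Itgax was -0.31 (standard error 0.27, p = 0.276, adjusted p = 0.999, edgeR). The medians of Gpnmb, Ccl2 and Itgax were thus lower in KO livers, while a single KO liver held the highest value of each.

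Mouse 532 also stood apart in several marker lists of other immune cells, but not in all lists. The summed level of 6 T cell genes was 12.5 CPM there against 2.10 to 4.88 CPM in WT livers, and that of 6 neutrophil genes was 13.8 CPM against 0.834 to 4.60 CPM. The 4 NK cell genes summed to 5.19 CPM there against 0.714 to 1.73 CPM in WT livers. Its 15 chemokine and receptor genes summed to 364 CPM against 51.3 to 82.5 CPM in WT livers, and its 20 pan-macrophage and myeloid genes to 1683 CPM against 515.6 to 710.8 CPM. Its 10 genes of recruited monocytes, a list led by F10 and Fn1, summed to 1403 CPM, below the 1754 to 2258 CPM of WT livers. Its 12 Kupffer cell genes outside the members summed to 729 CPM, below mice 602 (755 CPM) and 611 (759 CPM). Its 6 dendritic cell genes summed to 12.7 CPM, near mouse 568 (12.6 CPM). The part of other immune cells in the macrophage genes was not tested. The erythroid sum also moved with the slope on gene length, at 390 to 574 CPM in the 4 livers with a slope below 0 against 222.5 to 331.8 CPM in WT livers, and its part was not tested either.

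**Figure D3:**
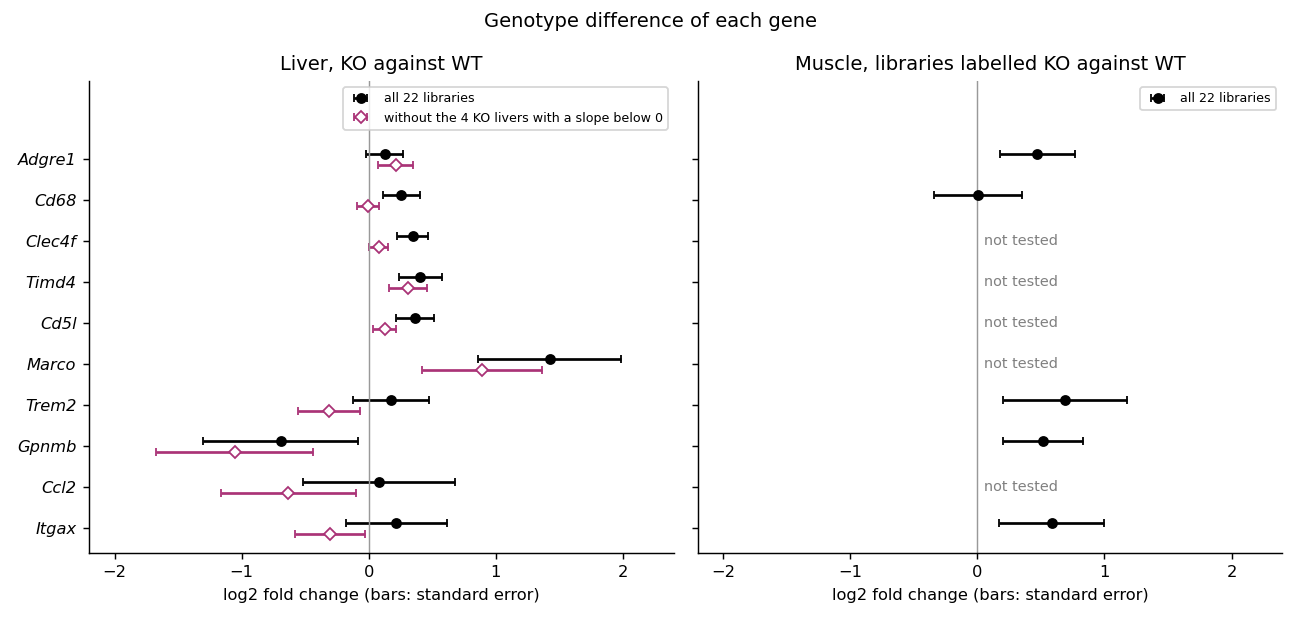
log2 fold change of each gene between KO and WT, with its standard error, in liver (left) and muscle (right). Filled points use all 22 libraries and open diamonds leave out the 4 KO livers with a slope on gene length below 0. Clec4f moves from 0.34 to 0.076, and Cd68, Trem2, Ccl2 and Itgax change sign, with no gene past the adjusted threshold.

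In muscle, 5 of the 10 genes had enough reads to be tested (Adgre1, Cd68, Trem2, Gpnmb and Itgax), while Clec4f, Timd4, Cd5l, Marco and Ccl2 were removed by the filter on low counts. None of the 5 differed between the muscle libraries labelled KO and WT muscle at the adjusted threshold, where 1 gene of 13266 (0.00754%) did, or at an unadjusted p under 0.05, where 8.64% of all genes did. The Slc16a13 count of these libraries does not show the loss their label implies, which bears on each direction given here. All 5 fitted values were above 0, with a median of 0.52 against 0.0078 over all genes.

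Adgre1 ranged from 0.995 over 3.17 to 4.94 CPM in WT muscles and from 1.24 over 3.45 to 8.98 CPM in those labelled KO. Its log2 difference was 0.47 (standard error 0.30, p = 0.123, adjusted p = 0.662, edgeR). Cd68 ranged from 1.403 over 5.33 to 11.2 CPM and from 1.86 over 4.23 to 15.3 CPM, a difference of 0.0041 (standard error 0.35, adjusted p = 0.998, edgeR). The sign of Cd68 in muscle was not fixed, as it was below 0 in 11 of the 22 fits that left out a mouse. Trem2 ranged from 0.0905 over 0.877 to 1.22 CPM and from 0.194 over 0.503 to 3.61 CPM, a difference of 0.69 (standard error 0.49, adjusted p = 0.709, edgeR). Gpnmb ranged from 2.96 over 5.97 to 9.97 CPM and from 2.48 over 6.18 to 21.9 CPM, a difference of 0.52 (standard error 0.31, adjusted p = 0.654, edgeR). Itgax ranged from 0.181 over 0.632 to 1.28 CPM and from 0.186 over 0.786 to 3.02 CPM, a difference of 0.59 (standard error 0.41, adjusted p = 0.709, edgeR). In every one of the 5 genes the groups overlapped and the highest values were those of mice 611 and 561, both labelled KO, with the exception that mouse 624 (WT) was above mouse 561 for Cd68. Without mouse 611 the log2 differences were 0.34 for Adgre1, 0.29 for Trem2, 0.24 for Gpnmb, 0.39 for Itgax and -0.28 for Cd68. Without mouse 561 they were 0.31, 0.49, 0.38, 0.28 and -0.13 in the same order, so these 2 libraries carried much of the fitted values.

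The test of whether the genotype difference itself differed between liver and muscle gave no gene of the 10 at the adjusted threshold, where 1 gene of 14739 (0.00678%), Slc16a13, passed, and none at an unadjusted p under 0.05, where 16.2% of all genes lay. Gpnmb came closest, with an interaction of -1.21 on the log2 scale (standard error 0.68, p = 0.0816, adjusted p = 0.35, edgeR), from a liver value of -0.69 and a value of 0.52 in muscle labelled KO. For Clec4f no interaction can be given, since muscle held no reads of it.

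The genes differed widely in how much they varied between mice of the same genotype. In WT livers the coefficient of variation of CPM was 8.0% for Clec4f and 10.5% for Cd5l, below the median of 12.1% over 13005 genes. Cd68 (13.3%), Adgre1 (15.0%) and Timd4 (19.6%) were above it. The other 5 genes varied far more, with 36.2% for Trem2, 43.7% for Itgax, 64.7% for Marco, 77.3% for Ccl2 and 90.8% for Gpnmb, and 99.6% of the genes tested varied less than Gpnmb. Counting error alone would give 14.5% for Gpnmb, 16.5% for Ccl2 and 7.0% for Marco, which is below the spread measured. In WT muscle all 5 genes tested varied more than most genes, from 38.3% for Gpnmb over 43.4% for Adgre1, 54.9% for Cd68 and 58.5% for Itgax to 59.8% for Trem2, against a median of 11.3%. The highest WT liver held 57.3 times as much Gpnmb as the lowest, where only 2 reads were counted, so this ratio is loosely set. For Clec4f, with at least 2150 reads in each WT liver, the ratio was 1.24.

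Whether the genes varied together was examined across mice, with each mouse's log2 CPM taken as its deviation from the genotype mean. A family of 55 pairs was tested, 45 in liver and 10 in muscle, by two-sided permutation within genotype (100000 resamples), and a pair was counted where Pearson's r passed and Spearman's rho did too, both after Benjamini-Hochberg adjustment. In muscle all 10 pairs passed, with r between 0.81 and 0.92, so that a mouse with much of 1 of these transcripts had much of all 5. The count was 6 of 10 within WT mice and 10 of 10 within those labelled KO. In liver 14 of 45 pairs passed, and the median r was 0.533. Within WT mice 8 liver pairs passed, within KO mice 6, and without the 4 livers with a slope below 0 the count was 15.

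Among the liver pairs, Timd4, Marco and Adgre1 varied together. Timd4 and Marco had r = 0.837 (permutation p = 2e-05, adjusted 9.17e-05), rho = 0.845 and r = 0.734 without the 2 mice farthest from the median of Timd4. Adgre1 had r = 0.794 with Timd4 (permutation p = 9e-05, adjusted 0.00033) and r = 0.788 with Marco (permutation p = 0.00014, adjusted 0.000428), with rho of 0.837 and 0.826. Both relations of Adgre1 also passed within WT mice and within KO mice. Timd4 and Marco passed within KO mice (r = 0.932, adjusted permutation p = 0.00055) but not within WT mice (r = 0.535, adjusted permutation p = 0.148). Within WT mice rho of this pair did pass (0.736, adjusted permutation p = 0.0461), and r was 0.819 without the 2 farthest mice.

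Gpnmb, Ccl2 and Itgax also varied together over all mice. Gpnmb had r = 0.776 with Itgax (permutation p = 3e-05, adjusted 0.000127, rho = 0.768) and r = 0.769 with Ccl2 (permutation p = 8e-05, adjusted 0.000314, rho = 0.713), and Ccl2 had r = 0.825 with Itgax (permutation p = 2e-05, adjusted 9.17e-05, rho = 0.674). Without the 2 farthest mice these were 0.721, 0.650 and 0.669. None of these pairs passed in both genotypes. Gpnmb and Itgax passed within WT mice only (KO rho = 0.636, adjusted permutation p = 0.122), Gpnmb and Ccl2 within KO mice only (WT r = 0.655, adjusted permutation p = 0.0607), and Ccl2 and Itgax in neither (adjusted permutation p of rho 0.0814 and 0.220), and whether the relations differ between genotypes was not tested. Of the pairs with Clec4f only that with Cd68 passed (r = 0.753, rho = 0.487), and its r was 0.270 without the 2 farthest mice. This pair had r = -0.404 within WT livers (adjusted permutation p = 0.323) and 0.918 within KO livers (adjusted 0.00055). Without the 4 livers with a slope below 0 it did not pass, with r = 0.210 (adjusted permutation p = 0.55). Both genes were higher in those 4 than in the other KO livers. Clec4f and Gpnmb had r = 0.00684 over all livers. Within WT livers its r with Gpnmb was -0.690 (permutation p = 0.0209, adjusted 0.0479) and rho -0.718 (permutation p = 0.0161, adjusted 0.0553), and within KO livers r was 0.218 (permutation p = 0.520) and rho -0.191 (permutation p = 0.578). Clec4f and Cd5l, the most abundant pair, had r = 0.803, but rho = 0.429 (adjusted permutation p = 0.109), and r was 0.333 without the 2 farthest mice, on which the relation rests. Cd5l did pass over all livers with Cd68 (r = 0.876, rho = 0.669), Timd4 (r = 0.747), Marco (r = 0.701), Trem2 (r = 0.724) and Ccl2 (r = 0.656). With Cd68 its r was 0.496 without the 2 farthest mice. That pair passed in neither genotype alone (adjusted permutation p of 0.125 for r in WT and 0.147 for rho in KO). Trem2 also passed with Cd68 (r = 0.784) and Ccl2 (r = 0.704).

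**Figure D4:**
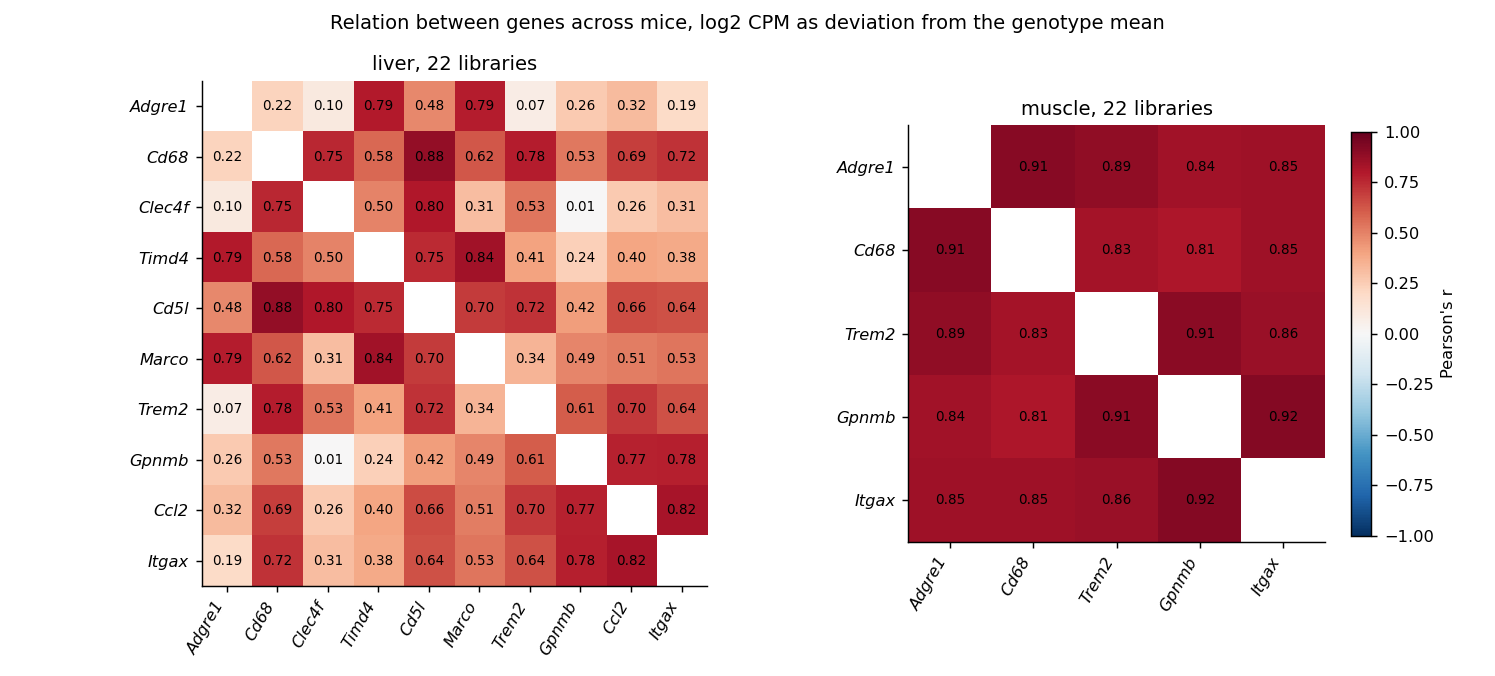
Pearson's r between genes across the 22 livers (left, 10 genes) and the 22 muscles (right, the 5 genes tested), from log2 CPM as deviation from the genotype mean. Colour runs from -1 (blue) to 1 (red). In muscle all values lie between 0.81 and 0.92, and in liver they range from 0.01 (Clec4f and Gpnmb) to 0.88 (Cd68 and Cd5l).

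The same mice gave both tissues, so liver and muscle were also set against each other for the 5 genes tested in both, a family of 5 relations. Gpnmb had r = 0.428 (permutation p = 0.051, adjusted 0.255; 0.460 without the 2 farthest mice) and rho = 0.571 (permutation p = 0.00723, adjusted 0.0361). Trem2 had r = 0.376 (permutation p = 0.111, adjusted 0.277) and rho = 0.450 (permutation p = 0.0462, adjusted 0.116). For Adgre1, Cd68 and Itgax r was between 0.037 and 0.213, with adjusted permutation p of at least 0.63. Within WT mice Gpnmb had r = 0.694 (adjusted permutation p = 0.102) and rho = 0.745 (adjusted 0.0499), and within KO mice r = 0.283 (adjusted permutation p = 0.841) and rho = 0.409 (adjusted 0.745). No gene passed with both coefficients.

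Adipocyte genes moved with the macrophage genes in muscle. The summed level of 6 adipocyte genes (Adipoq, Plin1, Lep, Cfd, Cidec and Retn) was 97.2 to 402 CPM in WT muscles, with a median of 200.5, and 135 to 916 CPM in those labelled KO, with a median of 226. All 6 were read in every muscle library, with Adipoq at up to 224 CPM. The 2 highest sums, 716 and 916 CPM, belonged to mice 611 and 561. Of 30 relations computed with this sum and with the slope on gene length, those of the 5 muscle genes with the sum all passed, with r of 0.838 for Adgre1, 0.842 for Cd68, 0.832 for Trem2, 0.889 for Gpnmb and 0.878 for Itgax (permutation p = 1e-05 each, the smallest that 100000 resamples can give, adjusted 6e-05) and rho from 0.816 to 0.863. Without the 2 mice farthest from the median sum r was 0.759 to 0.831. These relations held within WT mice (r from 0.791 to 0.882) and within those labelled KO (0.832 to 0.907). The part of fat tissue in the muscle values was not tested.

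In liver the same sum was mostly Cidec, which encodes a lipid droplet protein that fat-laden hepatocytes also express, with a smaller part from Cfd, which encodes complement factor D. Lep was at 0 in all 22 livers, Adipoq, Plin1 and Retn did not exceed 0.282 CPM, and Cidec ranged from 9.45 to 108 CPM in WT livers and from 6.44 to 60.1 CPM in KO livers. Cfd ranged from 1.34 to 8.73 CPM in WT livers and from 0.747 to 15.4 CPM in KO livers. Gpnmb followed the sum with r = 0.818 (permutation p = 4e-05, adjusted 0.0002) and rho = 0.835, and within each genotype with r = 0.859 (WT, adjusted permutation p = 0.00802) and 0.773 (KO, adjusted 0.0188). Ccl2 had r = 0.714 (permutation p = 0.00027, adjusted 0.00101, rho = 0.713) and Itgax r = 0.644 (permutation p = 0.00069, adjusted 0.00207, rho = 0.780), and without the 2 farthest mice these 3 were 0.836, 0.736 and 0.736. Clec4f had r = -0.0203 (permutation p = 0.929, adjusted 0.929, rho = -0.132) and Adgre1 r = 0.164 (permutation p = 0.454, adjusted 0.539, rho = 0.205). Within a genotype Ccl2 and Itgax did not pass with both coefficients. Ccl2 had r = 0.725 in WT livers (adjusted permutation p = 0.0604) and 0.734 in KO livers (adjusted 0.0283, rho adjusted 0.130), and Itgax 0.698 (adjusted permutation p = 0.0633) and 0.677 (adjusted 0.0508). The other relations of this family were with the slope on gene length. In liver the slopes fall into separate clusters, with 4 KO livers below 0, so no r over all livers or over KO livers is given. Within WT livers none of the 10 genes passed with the slope, with r of 0.258 for Clec4f (adjusted permutation p = 0.565) and -0.146 for Cd68 (adjusted 0.744). The ranges of both genes in the KO livers below and above 0 are given with their CPM and did not overlap. In muscle, where slopes ran from -0.0687 to 0.0506, Adgre1 (r = 0.557, adjusted permutation p = 0.0223, rho = 0.532, adjusted 0.0382) and Cd68 (r = 0.505, adjusted permutation p = 0.0465, rho = 0.523, adjusted 0.0397) passed over all mice, with r of 0.623 and 0.511 without the 2 farthest mice. No muscle gene passed with the slope within WT mice or within those labelled KO.

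**Figure D5:**
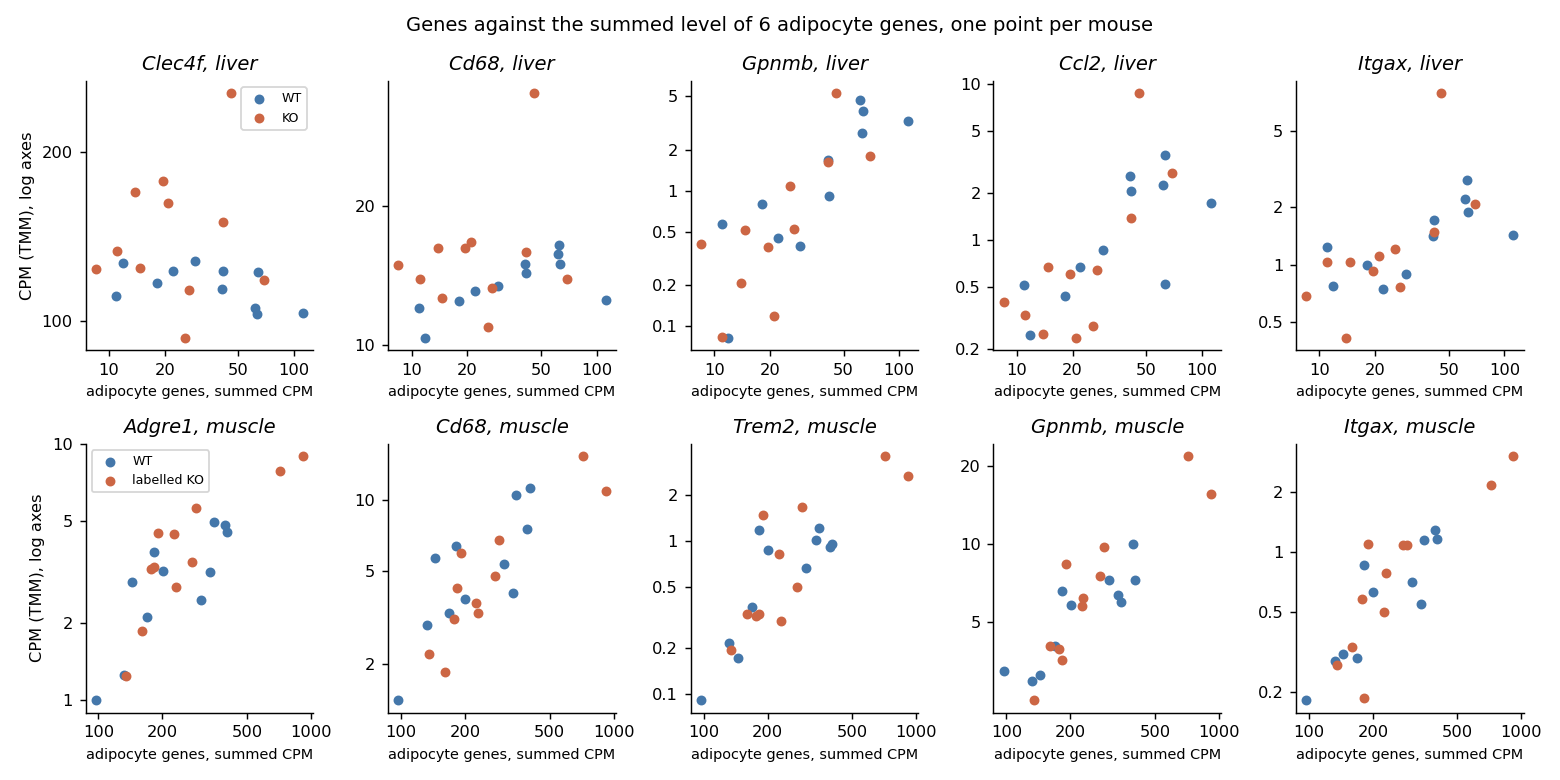
CPM of a gene (y) against the summed CPM of 6 adipocyte genes (x) on log axes, with 1 point per mouse, for 5 genes in liver (top) and the 5 genes tested in muscle (bottom). Gpnmb, Ccl2 and Itgax rise with the sum in liver (r of 0.818, 0.714 and 0.644 on log2 values less genotype means) and Clec4f does not (-0.0203), while all 5 muscle genes rise with it.

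Other macrophage genes gave a like picture between genotypes. None of the genes in the 7 lists passed the adjusted threshold in either tissue, so the counts are of unadjusted p under 0.05, to be read against 12.9% of all genes in liver (2.96% without the 4 livers) and 8.64% in muscle. In liver 8 of 20 pan-macrophage and myeloid genes had such a p, all higher in KO, and 1 of 20 (Csf1r, named after its value was seen) without the 4 livers with a slope below 0. Lyz2, a lysozyme of myeloid cells and the most abundant of the list, had 53.7 ± 11.4 RPKM in WT and 77.3 ± 70.0 RPKM in KO livers (SD, n = 11 each), a log2 difference of 0.60 (standard error 0.27, adjusted p = 0.382, edgeR) that was 0.11 without those 4. C1qb, a complement subunit made by macrophages, had 51.6 ± 4.15 and 72.9 ± 44.1 RPKM, a log2 difference of 0.57 (standard error 0.20, adjusted p = 0.382, edgeR), and 0.12 without those 4.

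Of 12 further Kupffer cell genes, 2 had an unadjusted p under 0.05 in liver, both higher in KO, which is near the 12.9% of all genes, and none without the 4 livers. They were Folr2, a folate receptor, at 0.28 and Fcna, a ficolin, at 0.33 on the log2 scale, which are named because the count is small and were chosen after their values were seen. The most abundant genes of this list, the nuclear receptor gene Nr1h3 (0.19, adjusted p = 0.39) and the iron exporter gene Slc40a1 (-0.049, adjusted p = 0.78, edgeR), are also expressed by hepatocytes. Of 8 tested genes of recruited monocytes 2 had such a p (F10, a coagulation factor gene that hepatocytes express, at 0.24 and Plac8 at 0.82, the latter named after its value was seen), while the matrix gene Fn1 was at -0.095 (adjusted p = 0.68). Without the 4 livers the calls changed, as F10 was at 0.050 (p = 0.341) and Plac8 at -0.055 (p = 0.721), and Fn1, at 0.15 (p = 0.0318), was the 1 of 9 with such a p. Of 14 lipid-associated genes none had such a p in either fit, where Apoe (0.27, adjusted p = 0.384) and the cathepsin gene Ctsd (0.13, adjusted p = 0.476) were the most abundant. F10, Fn1, Apoe and Ctsd, at 205, 196, 18200 and 273 RPKM in WT livers, all lay above the 67.5 RPKM of Clec4f. In whole tissue their values cannot be assigned to macrophages alone.

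Of 9 tested chemokine and receptor genes 3 had an unadjusted p under 0.05 in liver, namely Ccl5 (2.24), Cxcl9 (1.12) and Cxcl16 (0.44), all named after their values were seen. Without the 4 livers these were -0.27, -0.14 and 0.11, and none had such a p. Ccl9 (0.19, adjusted p = 0.392) and Ccl6 (0.27, adjusted p = 0.394) were the most abundant chemokines of the list. Among 6 tested cytokine genes Il18 alone had such a p (0.32, adjusted p = 0.382), and 0.090 without the 4 livers, and Il1rn was at -0.080 (adjusted p = 0.88). Among 5 tested genes of the list for resident muscle macrophages it was Folr2 again, and the most abundant in liver, Gas6 (0.079) and Lyve1 (-0.10), had adjusted p of 0.81 and 0.796.

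In muscle labelled KO against WT, where 8.64% of all genes had an unadjusted p under 0.05, the counts were 1 of 17 pan-macrophage genes (Mertk, a receptor for the uptake of dying cells, 0.28), 0 of 10 Kupffer cell genes, 2 of 5 genes of recruited monocytes (Lyz1, 0.53, and the scavenger receptor gene Msr1, 0.59), 0 of 14 lipid-associated genes, 1 of 7 chemokine and receptor genes (Ccl9, 0.54), 1 of 4 cytokine genes (Il34, 0.19) and 0 of 9 resident macrophage genes, all of them higher in the libraries labelled KO, with Mertk and Msr1 named after their values were seen. Of the genes not yet named, the most abundant of each list were Lyz2 (0.35, adjusted p = 0.651) and C1qb (0.28, adjusted p = 0.709), Slc40a1 (-0.0042) and Nr1h3 (0.043), Fn1 (0.34), Fabp4 (0.37) and Ctsd (-0.037), Ccl6 (0.47), Csf1 (0.14), and Retnla (0.58) and Gas6 (-0.040). Fabp4 and Ctsd, at 436 and 474 RPKM in WT muscles against 5.81 RPKM for Cd68, cannot be assigned to macrophages alone either. The median log2 difference was 0.28 for the pan-macrophage list and 0.17 for the lipid-associated list, against 0.0078 over all genes.

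Between tissues, of the 20 pan-macrophage genes 19 were higher and 1 lower in WT liver than in WT muscle, and all 12 Kupffer cell genes were higher, against 45.5% of all genes in either direction. The filter on low counts kept only 17 of the 20 and 10 of the 12 in muscle alone, so the rest could not have entered without their liver reads. Of the 14 lipid-associated genes 6 were higher and 7 lower in WT liver, and of the 9 genes for resident muscle macrophages 4 were higher and 5 lower, which is near the share of all genes in each direction. In KO mice the counts were 19 and 1, 12 and 0, 5 and 7, and 4 and 4.

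The genes most like a member were ranked by Spearman's rho across 11 WT libraries, as a description. For Clec4f in liver these were Elac2 (0.891), Nsd1 (0.891) and Abcb11, the bile salt export pump (0.882), and in KO livers the same pairs had rho of 0.173, -0.755 and -0.582. For Gpnmb in liver they were Pkm, a pyruvate kinase (0.973), Rasa4 (0.964) and Vat1 (0.964), with 0.173, 0.282 and 0.455 in KO livers. Neither set kept its rho in the KO livers, which include the 4 with a slope below 0, and no rho without those 4 was computed. The WT values were picked as the highest of 13004 genes over 11 livers. The lower KO values are therefore not read as a genotype difference. For Adgre1 in muscle they were Shisa5 (0.982), Alox12 (0.973) and Tspan12 (0.973), with 0.918, 0.645 and 0.591 in the libraries labelled KO. For Cd68 in muscle they were Gltp, a glycolipid transfer protein (0.964), Fam49a (0.964) and Tjp1, a tight junction protein (0.955), with 0.964, 0.645 and 0.718. Among the 10 genes themselves, the nearest to Clec4f in WT liver was Adgre1, ranked 2309th of 13004, and Itgax and Gpnmb ranked 12853rd and 12866th. The nearest to Adgre1 in WT muscle was Itgax, ranked 44th of 13265. Itgax ranked 33rd of 13004 for Gpnmb in WT liver, and 19th of 13265 for Cd68 in WT muscle.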

How the data were processed

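RNA-seq of liver and muscle from 11 WT and 11 KO mice was used, 44 libraries of stranded poly(A) RNA read single-end. The authors deposited raw read counts per gene, which were not normalized, together with RPKM that the authors had scaled to gene length and library size. The aligner, counter and build are not given in the sources used here. The length implied by both tables was off by over 1% from the gene's median for 45.8% of values. Gene symbols matched for 36340 of 38202 genes. Groups and mouse numbers came from the labels. The same number in both tissues marks the same mouse, and its deviations in liver and muscle correlated at 0.0703 on average (22 mice), against -0.0067 for different mice of a genotype.

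The members and the gene lists were chosen with earlier results of these data known. Counts were tested with edgeR 4.0.16 in R 4.3.3 (TMM, filterByExpr, quasi-likelihood F-test, Benjamini-Hochberg over all genes tested, threshold 0.05) on the libraries of a tissue, of a genotype or, for the interaction, all 44. CPM was scaled by TMM within a tissue, with a prior count of 2 for log2 values. Relations used Python 3.11.15 and scipy 1.17.1. A count of 3 reads was the floor. Alternatives were DESeq2 1.42.0, limma-voom 3.58.1, library size alone, no filter, at least 10 counts in every library, removal of gene length by loess (span 0.3), 1 surrogate variable (sva 3.50.0), log2 RPKM with pseudocounts of 0.1 and 1 in limma, each mouse left out in turn, the mouse as replicate block, and no livers with a slope on gene length below 0. The last was added after seeing the data for the contrast of KO tissues, for the lists and for the pairs of genes, and the relations with marker sums and slopes were also added then. The pairs of libraries of a group (220) held 0 identical pairs, and their lowest chi-square per gene was 4.468, so each was counted as its own sample. The named genes are the 10 members, Slc16a13, the 2 most abundant genes of each list and any past the adjusted threshold, and the 3 genes most like a member. The procedure was tested on simulated data.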

Additional observations from a re-analysis of the deposited data

How the results depend on the processing

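For the 10 genes, the count past the adjusted threshold stayed at 0 between genotypes in liver, in muscle and for the interaction under every alternative run, and in liver and muscle with each mouse left out, which was not run for the interaction or between tissues. Over all genes, KO against WT liver gave 3 genes with edgeR, 6 with DESeq2 and 1 with at least 10 counts in every library. Muscle labelled KO against WT gave 1 with edgeR, and 0 with limma-voom, without the filter, with at least 10 counts in every library and with RPKM at either pseudocount. The interaction gave 1 with edgeR, 3 without TMM, 43 with DESeq2, 0 with at least 10 counts in every library and 2 without the 4 livers with a slope on gene length below 0. With at least 10 counts in every library, 2 of the 10 genes were left past the threshold between tissues in WT mice and 2 in KO mice, since only 2 (Adgre1 and Cd68) were then tested.

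With the mouse as replicate block, the paired fit gave 1 gene and none of the 10 for the interaction, 12674 genes and 10 of the 10 between tissues in WT mice, and 12107 genes and 7 of the 10 in KO mice, where Ccl2 was lost (adjusted p = 0.0517). It changed no other call of the 10. Pairs of genes related across mice numbered 8 within WT and 6 within KO mice in liver, against 14 of 45 with all, and 6 within WT mice in muscle, against 10 of 10.

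In liver the sign of Ccl2 was below 0 in 6 of 9 alternatives, that of Trem2 in 6 of 10, that of Itgax in 5 of 10 and that of Cd68 in 2 of 10. In muscle that of Cd68 was below 0 in 6 of 9. Adgre1, Clec4f, Timd4, Cd5l and Marco stayed above 0 and Gpnmb below 0 in liver under all alternatives and with each mouse left out. Depth limits Gpnmb, Ccl2, Trem2 and Itgax in liver, where single libraries held as few as 2 to 14 reads of them, and Kupffer cell genes in muscle.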
